A study of Homo sapiens with 6 samples.

Results

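Solute carriers (SLC) are membrane proteins that move small molecules and ions across the plasma membrane and the membranes of organelles. They are grouped into numbered families by sequence, so that carriers of a family often share a type of substrate. In hepatocytes they set the exchange of sugars, amino acids, metals and organic acids with the blood, and the SLC25 family links the cytosol with the mitochondrial matrix. Their expression was compared between wild type (WT) HepG2 cells and HepG2 cells in which FN3K, the kinase that removes sugars from glycated lysines, was knocked out with CRISPR (FN3K KO). HepG2 cells are an established line from a human liver carcinoma. Both groups were grown on plates in the same serum-containing medium, 3 plates each, and the number of KO clones is not given in the sources used here. Since nothing states that the plates were independent cultures, the p-values measure the spread between these plates.

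The members were all rows of the deposited expression table whose gene name begins with SLC, a family number and A, without SLC7A11 and SLC37A4. This gave 75 of 6357 rows, each a different gene. All 75 were matched to GENCODE version 29 (GRCh38) through their transcript identifiers. By family number they were sorted into 18 mitochondrial carriers (SLC25), 12 rows of the amino acid class, 7 of the sugar class and 6 zinc carriers, with 30 in other classes. The 2 remaining rows, SLC4A1AP and SLC9A3R2, are not carriers but proteins named after a carrier they bind. All zinc carriers listed by name were importers of the SLC39 family, and 0 rows carried the name of an SLC30 exporter. Values are FPKM, fragments divided by transcript length and by all mapped fragments, so that levels of different genes can be set side by side.

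The knocked-out gene had 27.7, 21.9 and 23.2 FPKM in the WT libraries and 0.782, 1.03 and 0.704 in the KO libraries. Library depth is unknown, since the files hold no counts. Libraries correlated at r = 0.980 to 0.983 within the groups and 0.923 to 0.931 between them, over rows, which are not independent replicates. Of 9 hepatocyte markers 8 were listed by name, and all 8 were expressed in both groups. Their summed level was 7866 to 7985 FPKM in WT and 14510 to 15740 in KO. Of the 8 markers 5 were higher, 1 lower (HNF4A) and 2 not called, where 21.2% of all rows were higher and 36.5% lower. The sum does not stand for each marker: AFP rose from 1537 to 6206 FPKM in the mean and APOA1 from 1516 to 3339, while TF and SERPINA1 were not called. None of 11 fibroblast, leukocyte and endothelial markers was listed by name. The part of the marker change in the carrier results was not tested. In bulk RNA, fewer cells of a type and less RNA per cell cannot be told apart.

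In FN3K KO cells 21 members were higher and 31 lower at a Benjamini-Hochberg adjusted p under 0.05 in limma, and 23 were not called. Over all 6357 rows 57.7% were called, 21.2% higher and 36.5% lower. Carriers were thus called at 69.3%, with 41.3% lower, and leaned the same way as the background. The median log2 fold change was -0.15 over the members and -0.14 over all rows. Groups did not overlap for 53 members, against 63.4% of all rows. The size of change was modest for most: 5 members (3 higher, 2 lower) passed an unadjusted p under 0.05 with a log2 fold change beyond 1 in size, a limit passed by 7.63% of all rows (4.31% higher, 3.32% lower). These were SLC16A13, SLC40A1 and SLC25A35 among the higher, and SLC38A5 and SLC22A3 among the lower.

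The lean towards lower calls depended on the model. In the linear model of Ballgown, which adjusts for library size, 16 members were called, 11 higher and 5 lower, so that higher calls made up 68.8% of the calls in place of 40.4%. The whole table shifted the same way: over all 6357 rows this model called 606 higher and 521 lower, against 1348 and 2322 in limma. Of the 16 members, all but SLC25A4 were also called in limma, and all 15 in the same direction. They were SLC16A13, SLC40A1, SLC25A35, SLC2A6, SLC25A1, SLC6A11, SLC25A23, SLC16A3, SLC29A1 and SLC25A11 on the higher side, and SLC38A5, SLC2A1, SLC25A3, SLC25A38 and SLC16A1 on the lower side. All other members called in limma lost that call in this model. Besides the adjustment, it tests each row on its own variance, without the moderation across rows that limma adds. Which of these differences cost the calls was not tested. Among the members called in limma and named below, the estimate of this model was smaller by over 1.5 times for SLC25A36, SLC2A3 (-0.24), SLC52A2 (-0.15), SLC19A2 (-0.26) and SLC38A2 (-0.18). It was larger by over 1.5 times for SLC16A3 (0.95), SLC25A11 (0.37) and SLC20A1 (0.56). None of the 52 members called in limma changed the sign of its estimate.

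**Figure D1:**
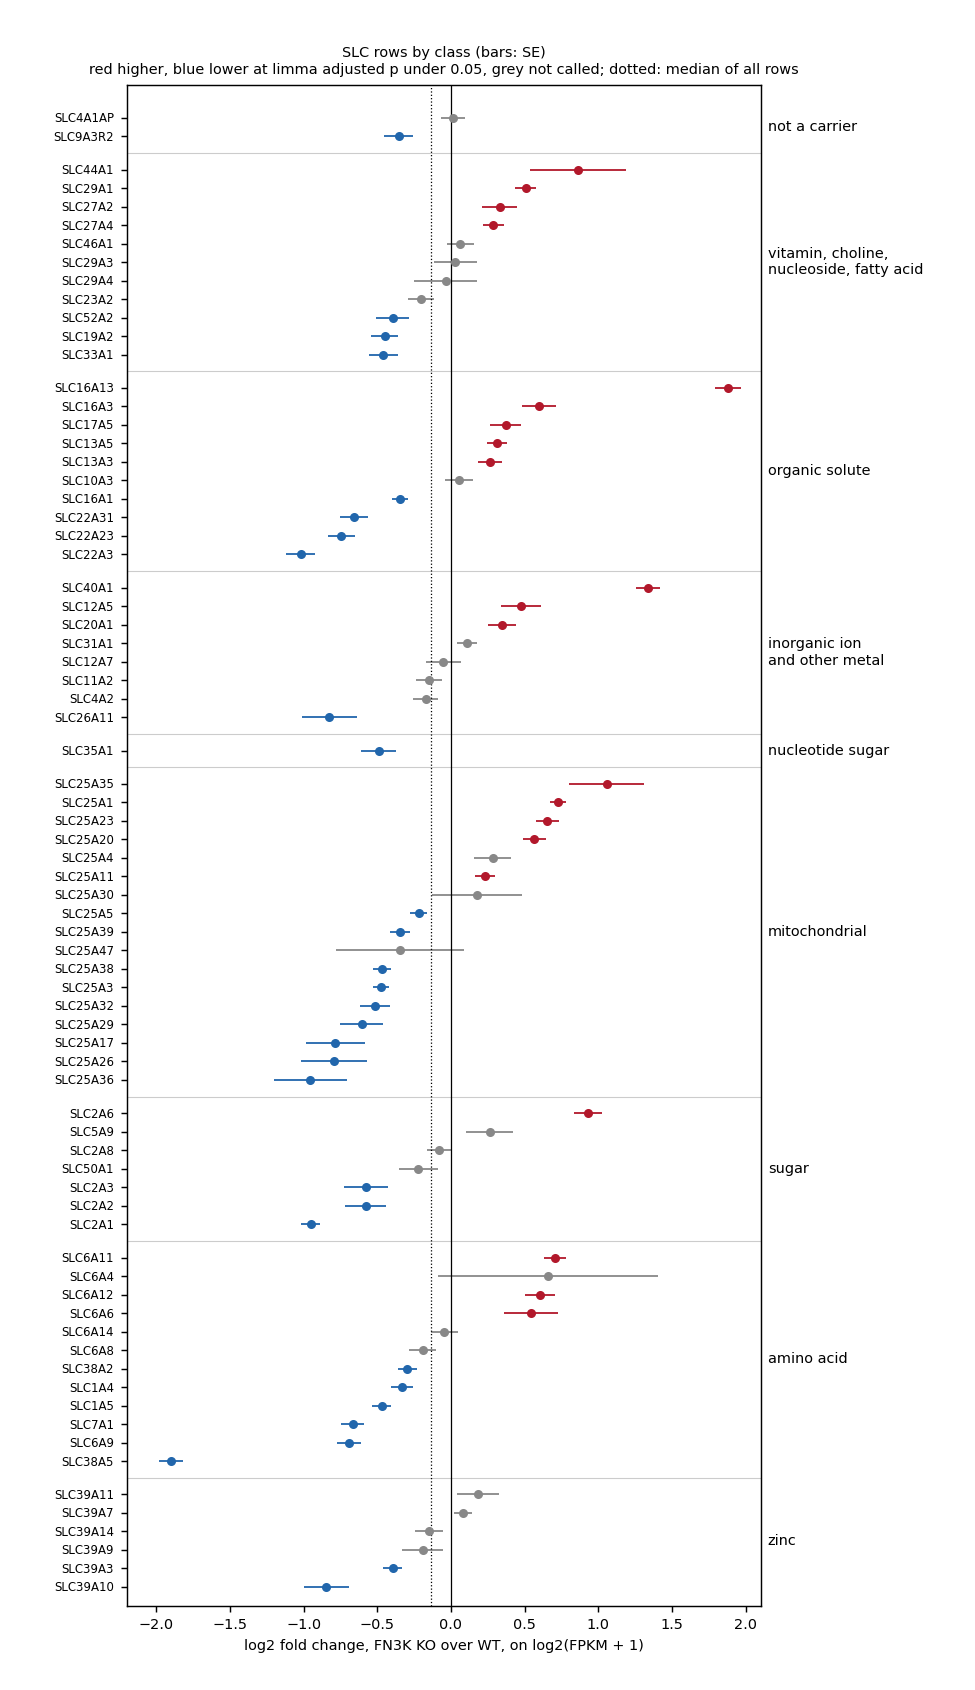
Log2 fold change of FN3K KO over WT on log2(FPKM + 1) for the SLC rows reported here, sorted by class, with bars of 1 standard error. Red points are higher and blue points lower at a limma adjusted p under 0.05, grey points were not called, and the dotted line is the median of all rows (-0.14). SLC16A13 lies farthest to the right at 1.88 and SLC38A5 farthest to the left at -1.90.

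Zinc entry and export are balanced by SLC39 importers and SLC30 exporters, while metallothioneins bind the metal in the cytosol. Metallothionein genes answer to MTF1, a zinc-sensing transcription factor that binds metal response elements in promoters. None of the 6 zinc importers was higher in FN3K KO cells in limma (0 at an unadjusted p under 0.05), and 2 were lower. Over all rows 21.2% were higher and 36.5% lower, so counts this small are not set apart from the background. With the library adjustment 0 were called, and 2 were lower at an unadjusted p under 0.05. The class median was -0.17, close to that of all rows.

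Because metallothioneins were higher, the upstream sequences of the iron exporter SLC40A1 and of the zinc importer SLC39A3 are shown, which hold the same 7-letter metal core and moved in opposite directions. Letters of the core of the metal response element, TGCNCNC on either strand, are in capitals. The sequences are from RefSeq (GRCh38.p14), read 5′ to 3′ on the strand of the gene, and end at the nearest annotated exon.
SLC40A1 (chr2:189580888-189581036, minus strand): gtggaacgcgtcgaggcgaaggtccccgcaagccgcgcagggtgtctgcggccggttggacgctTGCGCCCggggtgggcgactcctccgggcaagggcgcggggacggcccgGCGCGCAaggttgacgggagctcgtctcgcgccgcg
SLC39A3 (chr19:2740153-2740326, minus strand): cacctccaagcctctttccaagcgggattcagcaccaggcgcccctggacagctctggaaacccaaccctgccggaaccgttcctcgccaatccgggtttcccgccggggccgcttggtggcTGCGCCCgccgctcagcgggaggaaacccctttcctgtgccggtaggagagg
In SLC40A1 the cores begin 186 and 137 bases before the RefSeq start, the latter on the opposite strand, and in SLC39A3 the core begins 128 bases before it. These letters are common: 48.4% of 27305 promoters hold them in the 250 bases before the start, as do 38 of the 58 members with a promoter in the table. Among the other zinc importers, SLC39A11 holds 1, at 140 bases before the start, and SLC39A10, SLC39A7 and SLC39A9 hold none in that window. No promoter was available for SLC39A14. A match of letters is a description and not a site.

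SLC39A10, a zinc importer of the plasma membrane (chromosome 2, 195575977 to 195737702), had 6.69, 6.88 and 4.87 FPKM in WT and 2.81, 3.06 and 2.96 in FN3K KO. The highest KO value was well under the lowest WT value. The log2 fold change was -0.85 (standard error, SE, 0.15, adjusted p = 0.0017 in limma), which left 47.9% of the WT mean. SLC39A3 (chromosome 19, 2732204 to 2740152) fell from 26.7 ± 1.39 to 20.1 ± 0.801 FPKM (SD, n = 3), which on the log2 scale was a change of -0.39 (SE 0.06, adjusted p = 9.1e-04 in limma). SLC39A3 shares exon sequence with AC006538.2 on its own strand, so reads could be split between them.

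The most abundant zinc importer was SLC39A14, which brings zinc, iron and manganese into hepatocytes, at 166, 183 and 171 FPKM in WT and 154, 180.4 and 137 in KO. The ranges overlapped, and the log2 fold change of -0.15 was not called (SE 0.10, adjusted p = 0.21 in limma). Its estimate turned to 0.01 with the library adjustment, and without KO replicate 2 it was -0.25 and passed 0.05. SLC39A7, which releases zinc from the endoplasmic reticulum, had 106 ± 6.02 FPKM in WT and 113 ± 4.98 in KO (SD, n = 3, log2 fold change 0.08, adjusted p = 0.27 in limma). SLC39A9 and SLC39A11 had log2 fold changes of -0.19 and 0.18, neither called. The row of SLC39A9 lists a transcript with a retained intron, and the exons of SLC39A9 overlap ERH on the other strand.

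Against these levels, the 7 metallothioneins listed by name were all higher, against 21.2% of all rows. Their summed level rose from 64.3 to 77.98 FPKM in the WT libraries to 483 to 656 in the KO libraries. MTF1 was not listed by name. This family is given for comparison only, since its increase was known when the carriers were chosen.

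Among 3 carriers of iron and copper, the iron exporter was higher and the importers were not called in the main fit. SLC40A1, or ferroportin, the only known cellular exporter of iron (chromosome 2, 189560579 to 189583758), had 7.71, 9.31 and 9.14 FPKM in WT and 23.04, 24.1 and 23.2 in FN3K KO. All 3 KO libraries were far above the highest WT library. The gain on the log2 scale was 1.33 (SE 0.08, adjusted p = 3.6e-06 in limma), the second highest among the members and 138th of all 6357 rows. SLC11A2, which imports iron, was at 8.52 ± 0.566 and 7.57 ± 0.155 FPKM (SD, n = 3, log2 fold change -0.15, adjusted p = 0.17 in limma). SLC31A1, the main copper importer, was at 26.5 ± 1.25 and 28.7 ± 1.68 FPKM (SD, n = 3, log2 fold change 0.11, adjusted p = 0.19 in limma). Neither was called.

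**Figure D2:**
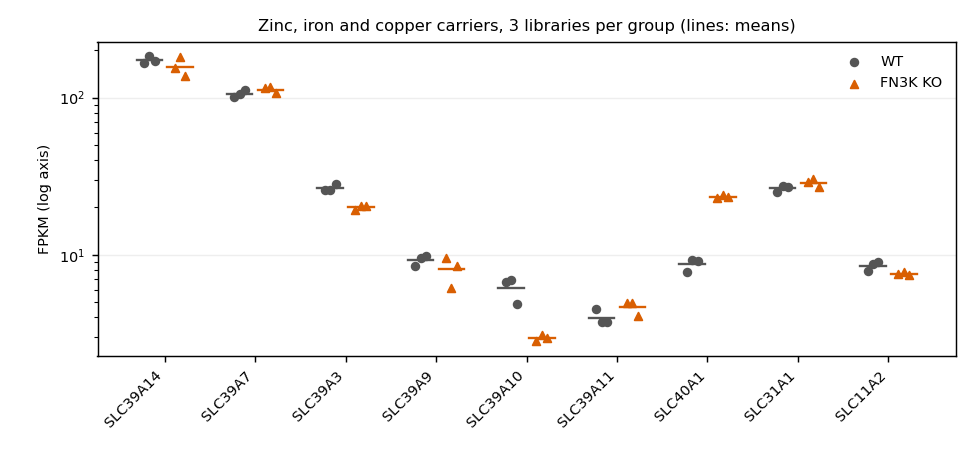
FPKM on a log axis of 6 zinc importers, the iron exporter SLC40A1, the copper importer SLC31A1 and the iron importer SLC11A2. Each point is a library (grey circles WT, orange triangles FN3K KO, 3 per group) and each line a group mean. SLC40A1 separates upwards, from 8.72 to 23.4 FPKM in the mean, and SLC39A10 downwards, from 6.14 to 2.94.

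Amino acid carriers of hepatocytes include sodium-coupled importers of neutral amino acids (SLC1A4, SLC1A5, SLC38A2, SLC38A5), the importer of arginine and lysine SLC7A1, and the SLC6 family, which carries glycine, betaine, taurine, creatine and neurotransmitters. Of the 12 rows 6 were lower and 3 higher in FN3K KO cells (36.5% and 21.2% over all rows), with a class median of -0.24. All 5 members of the SLC1, SLC7 and SLC38 families were lower in limma, while the 7 rows of SLC6 held 3 higher, 1 lower and 3 not called. SLC7A11 was left out of the members and is not counted here. With the library adjustment only SLC38A5 of the 5 was called. This split by family was noticed in the values and was not tested.

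SLC38A5, an importer of glutamine, histidine and other neutral amino acids (chromosome X, 48458537 to 48470256), had the lowest log2 fold change of all members, 20th from the bottom of all rows. It had 41.7, 34.2 and 38.7 FPKM in WT and 9.77, 8.95 and 9.73 in FN3K KO. The KO mean was 24.8% of the WT mean, with a log2 fold change of -1.90 (SE 0.08, adjusted p = 4.8e-07 in limma). Under omission of each library the log2 fold change stayed between -1.98 and -1.83.

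The general importer of cationic amino acids, SLC7A1 (chromosome 13, 29509410 to 29595688), had 27.1, 27.4 and 27.96 FPKM in WT and 16.4, 19.02 and 15.6 in KO. On the log2 scale it changed by -0.67 (SE 0.08, adjusted p = 1.4e-04 in limma). SLC6A9, the glycine transporter GlyT1 (chromosome 1, 43991500 to 44031467, with exons that overlap CCDC24 on the other strand), fell from 23.6 ± 1.39 to 14.2 ± 1.33 FPKM (SD, n = 3). This was a log2 fold change of -0.69 (SE 0.08, adjusted p = 1.4e-04 in limma). Neither carrier had overlapping groups.

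SLC1A5, the glutamine importer ASCT2 (chromosome 19, 46774883 to 46788594), had 114, 114 and 123 FPKM in WT and 80.4, 91.6 and 80.5 in KO, a log2 fold change of -0.47 (SE 0.07, adjusted p = 4.1e-04 in limma). Its relative SLC1A4, which carries alanine, serine and cysteine, fell to 78.3% of its WT mean (log2 fold change -0.33, SE 0.07, adjusted p = 0.0044 in limma). The most abundant row of the class was SLC38A2, an importer that cells raise when amino acids are scarce. It had 198, 212 and 206 FPKM in WT and 162, 181 and 159 in KO (log2 fold change -0.30, SE 0.06, adjusted p = 0.0043 in limma). The summed level of the class was 484 to 501 FPKM in WT and 368 to 409 in KO, without overlap.

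The SLC6 carriers that rose were SLC6A11, SLC6A12 and SLC6A6. SLC6A11, a transporter of GABA and taurine (chromosome 3, 10816200 to 10940733), had 14.9, 16.1 and 17.5 FPKM in WT and 26.4, 25.8 and 28.6 in KO, a log2 fold change of 0.71 (SE 0.08, adjusted p = 8.0e-05 in limma). SLC6A12, the betaine transporter, rose from 5.76 ± 0.412 to 9.29 ± 0.887 FPKM (SD, n = 3, log2 fold change 0.60, SE 0.10, adjusted p = 0.0012 in limma). The taurine transporter SLC6A6 had 6.28, 3.54 and 5.67 FPKM in WT and 6.72, 8.90 and 7.86 in KO. Its groups came close, and its log2 fold change of 0.54 (SE 0.18, adjusted p = 0.031 in limma) was not called without WT replicate 2 (0.34), WT replicate 3 (0.61), KO replicate 2 (0.45) or KO replicate 3 (0.53).

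The creatine transporter SLC6A8 and the amino acid carrier SLC6A14 had log2 fold changes of -0.19 and -0.05, and neither was called. SLC6A4, the serotonin transporter, was listed at 0 in all WT libraries and at 2.76, 0.0429 and 0 FPKM in KO replicates 1, 2 and 3. Its mean over the KO group rests on KO replicate 1, and no fold is given.

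Genes that respond to amino acid shortage through ATF4, the transcription factor of that response, were counted from a list in the same fit. Of 11 genes 8 were listed by name, of which 7 were lower and 1 higher, against 36.5% lower and 21.2% higher over all rows. ATF4 had 305, 314 and 318 FPKM in WT and 238, 220.4 and 224 in KO (log2 fold change -0.46, SE 0.06, adjusted p = 1.9e-04 in limma). ASNS, which makes asparagine, had a log2 fold change of -0.53, and PHGDH, which opens serine synthesis, was the gene that was higher, at 0.33. The letters of the C/EBP-ATF element, TGATGNAA on either strand, were in the promoter of 1 of 58 members (SLC25A11) and in 3.19% of all promoters.

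**Figure D3:**
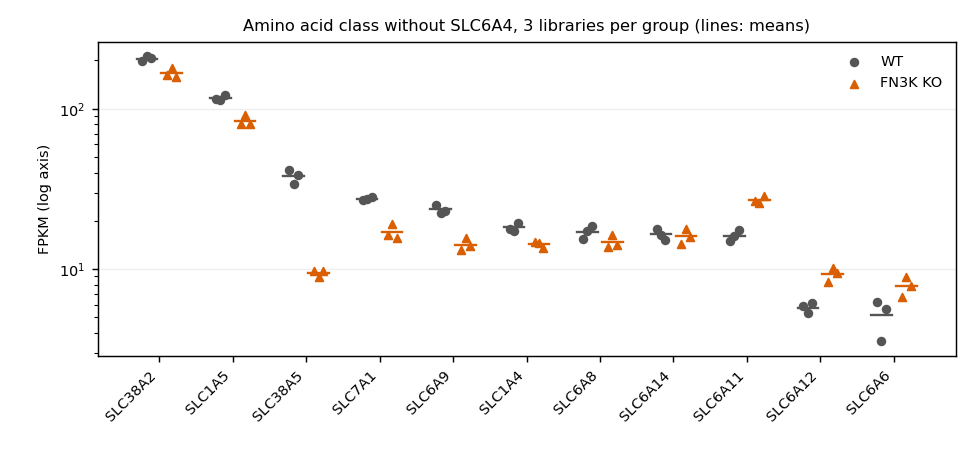
FPKM on a log axis of 11 rows of the amino acid class, with SLC6A4 left out because it is listed at 0. Points are libraries (grey circles WT, orange triangles FN3K KO, 3 per group) and lines group means. SLC38A5 shows the widest gap, 38.2 against 9.48 FPKM in the mean, and SLC6A11, SLC6A12 and SLC6A6 are higher in KO.

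Glucose enters cells through facilitative carriers of the SLC2 (GLUT) family. GLUT1 (SLC2A1) is the common carrier of growing cells, GLUT2 (SLC2A2) that of normal hepatocytes and GLUT3 (SLC2A3) a carrier of high affinity, while GLUT6 (SLC2A6) and GLUT8 (SLC2A8) reside mainly in membranes inside the cell. SLC2A1, SLC2A2 and SLC2A3 were lower in FN3K KO cells and SLC2A6 was higher, where 36.5% of all rows were lower and 21.2% higher. The remaining 3 rows of the sugar class were not called.

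SLC2A1 (chromosome 1, 42925375 to 42959176) was the most abundant sugar carrier, at 103, 110.2 and 109 FPKM in WT and 52.9, 59.7 and 52.9 in FN3K KO. The KO libraries held 51.3% of the WT level in the mean, and the groups lay far apart. The change on the log2 scale was -0.95 (SE 0.06, adjusted p = 5.3e-06 in limma), and it stayed between -1.01 and -0.92 under omission of each library. Exons of SLC2A1 overlap AC099795.1 on the same strand and SLC2A1-AS1 on the other, and the strand of the libraries is not given.

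SLC2A2 (chromosome 3, 170996348 to 171026750) had 7.05, 10.3 and 7.57 FPKM in WT and 5.51, 5.21 and 4.76 in KO, a log2 fold change of -0.58 (SE 0.14, adjusted p = 0.0072 in limma). SLC2A3 (chromosome 12, 7919230 to 7936275) had 5.30, 7.74 and 7.24 FPKM in WT and 4.20, 4.55 and 3.76 in KO (log2 fold change -0.57, SE 0.15, adjusted p = 0.010 in limma). It has a close relative in SLC2A14, with which it could share reads. Summed over SLC2A1, SLC2A2 and SLC2A3, the level was 115 to 128 FPKM in WT and 61.4 to 69.4 in KO.

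SLC2A6 (chromosome 9, 133471095 to 133479137) went the other way, from 9.76, 10.5 and 12.3 FPKM in WT to 19.6, 22.2 and 22.7 in KO. The log2 fold change was 0.93 (SE 0.10, adjusted p = 5.9e-05 in limma), 1.98 times the WT mean. The ratio of SLC2A1 to SLC2A6 was 8.94 to 10.5 in the WT libraries and 2.33 to 2.70 in the KO libraries. SLC2A8, SLC50A1 and the sodium-coupled carrier SLC5A9 had log2 fold changes of -0.08, -0.22 and 0.26, none called. The row of SLC5A9 lists a transcript marked for nonsense-mediated decay.

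Genes that handle glucose after uptake were read from a list of 9, of which 4 were listed by name. TXNIP, an inhibitor of glucose uptake that draws GLUT1 into the cell, had 0.397, 0.471 and 0.420 FPKM in WT and 6.49, 4.96 and 5.99 in KO (log2 fold change 2.25, SE 0.22, adjusted p = 4.9e-05 in limma). HK2, a hexokinase that traps glucose as its phosphate, fell from 18.3 ± 0.776 to 11.1 ± 1.72 FPKM (SD, n = 3, log2 fold change -0.69, adjusted p = 5.3e-04 in limma). G6PC, which frees glucose from its phosphate, had a log2 fold change of 0.70 (adjusted p = 2.5e-04 in limma), and MLX was not called.

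Lactate and related acids leave and enter through the SLC16 family. SLC16A1 (MCT1) and SLC16A3 (MCT4), which depend on the chaperone basigin, moved in opposite directions. SLC16A3, the exporter of lactate in glycolytic cells (chromosome 17, 82228397 to 82261129), had 58.9, 67.3 and 73.5 FPKM in WT and 89.3, 120.1 and 95.3 in KO (log2 fold change 0.60, SE 0.12, adjusted p = 0.0023 in limma). SLC16A1 (chromosome 1, 112911847 to 112957013) had 34.4, 36.2 and 34.5 FPKM in WT and 27.1, 27.1 and 27.9 in KO (log2 fold change -0.35, SE 0.05, adjusted p = 6.7e-04 in limma). The ratio of SLC16A3 to SLC16A1 was therefore 1.71 to 2.13 in WT and 3.30 to 4.44 in KO. Exons of SLC16A3 overlap CSNK1D on the other strand, and those of SLC16A1 overlap SLC16A1-AS1. Basigin (BSG) was at 261 ± 7.73 and 280.5 ± 19.6 FPKM (SD, n = 3) and was not called (adjusted p = 0.21 in limma).

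SLC16A13, a less studied member of the same family (chromosome 17, 7036075 to 7040121), had the highest log2 fold change of all carriers, 61st of all rows. It had 3.38, 3.75 and 3.59 FPKM in WT and 15.2, 15.9 and 16.4 in FN3K KO. No KO library came near the WT range, and the KO mean was 4.43 times the WT mean. The log2 fold change was 1.88 (SE 0.09, adjusted p = 7.5e-07 in limma), between 1.85 and 1.91 under omission of each library. The next members on the short arm of chromosome 17, SLC13A5, SLC25A11 and SLC25A35, were also higher. Among all 32 rows between 4937130 and 8295343 on chromosome 17, 13 were higher (40.6%, against 21.2% of all rows) and 12 lower. This interval was chosen after the values were seen, and the 4 members that define it are among the 13.

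**Figure D4:**
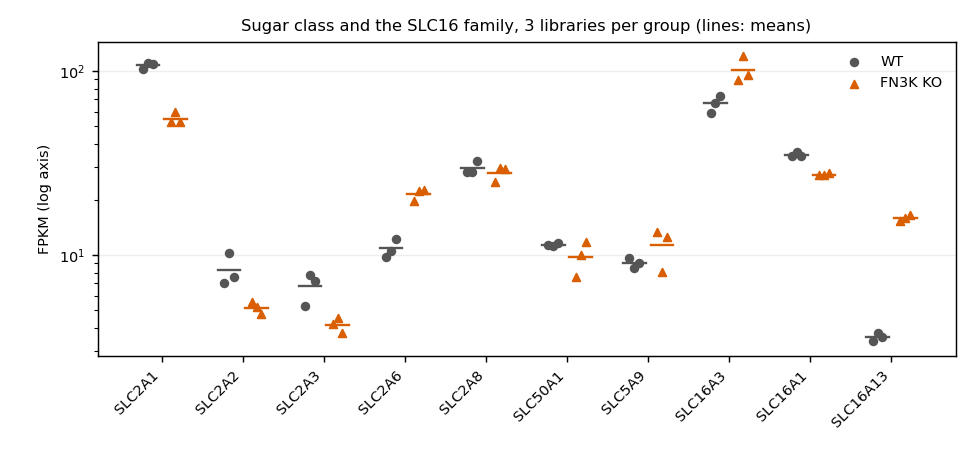
FPKM on a log axis of the 7 rows of the sugar class and the SLC16 family. Points are libraries (grey circles WT, orange triangles FN3K KO, 3 per group) and lines group means. SLC2A1 falls from 108 to 55.1 FPKM in the mean while SLC2A6 and SLC16A13 rise, to 21.5 and 15.8 FPKM.

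Mitochondrial carriers of the SLC25 family exchange metabolites, nucleotides and cofactors across the inner membrane. Of 18 carriers 10 were lower, 5 higher and 3 not called in FN3K KO cells, and the class median was -0.34. Over all rows 36.5% were lower and 21.2% higher.

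SLC25A1, which exports the citrate used for fatty acid and sterol synthesis (chromosome 22, 19175575 to 19178830), had 57.8, 55.7 and 61.4 FPKM in WT and 94.5, 97.0 and 99.4 in KO. The groups did not come near each other. The log2 fold change was 0.73 (SE 0.06, adjusted p = 1.1e-05 in limma). SLC25A20, which brings acylcarnitines into the matrix for oxidation (chromosome 3, 48856931 to 48898993), rose from 10.8 ± 0.736 to 16.4 ± 0.985 FPKM (SD, n = 3), which on the log2 scale was a change of 0.57 (SE 0.08, adjusted p = 3.9e-04 in limma).

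SLC25A23, a calcium-regulated carrier of ATP-Mg and phosphate (chromosome 19, 6436079 to 6465203), had 9.01, 8.39 and 9.15 FPKM in WT and 14.04, 14.02 and 15.4 in KO (log2 fold change 0.65, SE 0.08, adjusted p = 1.5e-04 in limma). SLC25A11, the exchanger of oxoglutarate and malate, rose to 1.18 times its WT mean. Its log2 fold change of 0.23 (SE 0.07, adjusted p = 0.018 in limma) was not called without KO replicate 2 (0.20) or KO replicate 3 (0.22). SLC25A35, whose substrate is not settled, had 0.758, 0.851 and 0.904 FPKM in WT and 2.95, 2.60 and 2.92 in KO (log2 fold change 1.06, SE 0.25, adjusted p = 0.0070 in limma). At so low a level the pseudocount of 1 holds the fold down, and the KO mean was 3.37 times the WT mean. SLC25A35 overlaps RANGRF, and SLC25A11 overlaps RNF167, each on the other strand.

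The larger decreases were seen among carriers with WT means under the class median of 8.19 FPKM. SLC25A36, a carrier of pyrimidine nucleotides (chromosome 3, 140941830 to 140980961), had 5.09, 7.10 and 6.49 FPKM in WT and 1.76, 4.49 and 2.35 in KO. KO replicate 2 lay nearest to WT. Its log2 fold change was -0.96 (SE 0.25, adjusted p = 0.010 in limma), and it ranged from -1.24 to -0.74 under omission of each library. With the library adjustment it was -0.36 (adjusted p = 0.55).

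SLC25A26, which imports S-adenosylmethionine, had 7.88, 8.74 and 5.98 FPKM in WT and 5.86, 3.38 and 2.85 in KO. The highest KO library reached almost to the lowest WT library. Its log2 fold change of -0.79 (SE 0.22, adjusted p = 0.014 in limma) was not called without WT replicate 2 (-0.69), KO replicate 2 (-0.72) or KO replicate 3 (-0.62). SLC25A17, a relative that sits in peroxisomes and carries CoA and other cofactors, had a log2 fold change of -0.78 (SE 0.20, adjusted p = 0.0088 in limma). SLC25A29, a carrier of basic amino acids, had -0.61 (SE 0.15, adjusted p = 0.0075 in limma).

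Among the more abundant carriers SLC25A5, SLC25A39 and SLC25A3 were also lower, by smaller amounts, while SLC25A1 was higher. SLC25A5, an ADP/ATP exchanger with processed pseudogenes that could share its reads (chromosome X, 119468400 to 119471319), had 322, 312 and 311 FPKM in WT and 280.0, 277 and 256 in KO. The log2 fold change was -0.22 (SE 0.06, adjusted p = 0.012 in limma), and after scaling to a shared 75th percentile it was -0.17 and not called. Its relative SLC25A4, at 6.24 ± 0.975 and 7.77 ± 0.682 FPKM (SD, n = 3), was not called (log2 fold change 0.28, adjusted p = 0.082 in limma). It was called higher with the library adjustment (0.59, adjusted p = 0.045) and after scaling to a shared 75th percentile (0.32, adjusted p = 0.032). SLC25A3, the phosphate carrier, fell from 51.6 ± 0.779 to 36.9 ± 1.16 FPKM (SD, n = 3, log2 fold change -0.47, adjusted p = 8.4e-05 in limma).

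Carriers tied to glycine, folate and glutathione were lower too. SLC25A38, which brings in glycine for heme synthesis, had 20.4, 20.02 and 21.8 FPKM in WT and 14.3, 14.9 and 14.9 in KO (log2 fold change -0.47, SE 0.06, adjusted p = 3.2e-04 in limma). SLC25A32, a folate and FAD carrier, and SLC25A39, which imports glutathione, had log2 fold changes of -0.52 and -0.34. SLC25A30 and SLC25A47 were not called, and the latter had 2.44, 0.260 and 3.41 FPKM in KO replicates 1, 2 and 3, a spread wider than the gap between the group means. Summed over the 18 carriers, the level was 636 to 651 FPKM in WT and 585 to 599.9 in KO. SLC25A5 alone gave 311 to 322 FPKM of this in WT and 256 to 280.0 in KO, so the sum does not stand for each carrier.

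A list of 21 carriers and companion proteins with other symbols, of the mitochondrion, the plasma membrane and elsewhere, had 10 listed by name, with 6 higher and 4 not called, where 21.2% of all rows were higher. MPC1, a subunit of the mitochondrial pyruvate carrier, had 82.7, 77.1 and 78.2 FPKM in WT and 133, 137 and 147 in KO (log2 fold change 0.80, SE 0.06, adjusted p = 8.0e-06 in limma). Its partner MPC2 was at 16.99 ± 1.498 and 19.2 ± 0.551 FPKM (SD, n = 3, log2 fold change 0.17, adjusted p = 0.087 in limma) and was not called. SLCO4C1, an organic anion transporter, rose from 5.37 ± 0.296 to 17.2 ± 0.880 FPKM (SD, n = 3, log2 fold change 1.51, adjusted p = 1.7e-06 in limma).

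**Figure D5:**
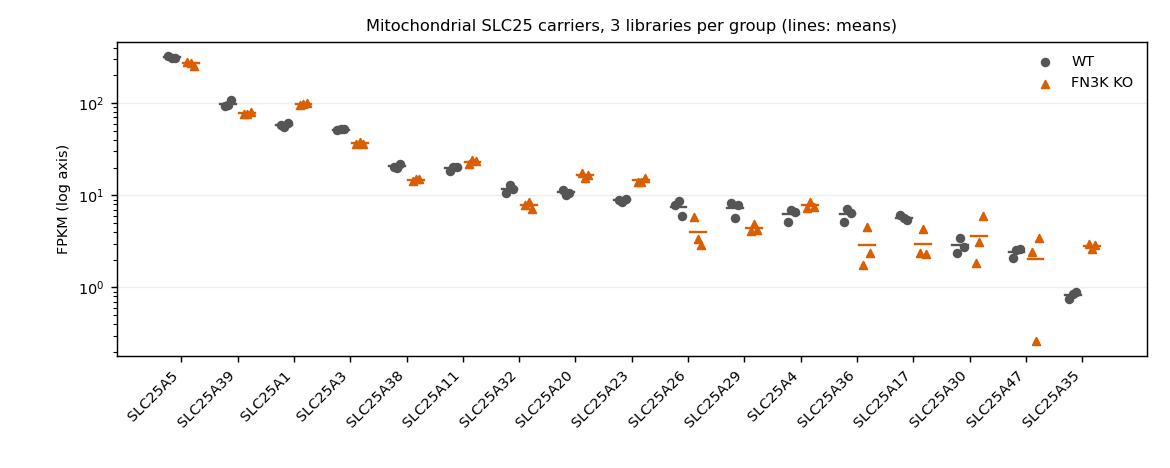
FPKM on a log axis of the SLC25 carriers reported here, ordered by their WT mean. Points are libraries (grey circles WT, orange triangles FN3K KO, 3 per group) and lines group means. Levels span from 315 FPKM for SLC25A5 to 0.837 for SLC25A35 in WT, and SLC25A47 has a KO library at 0.260.

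Among carriers of organic solutes, 5 of 10 were higher and 4 lower (21.2% and 36.5% over all rows). The class median was 0.16, against -0.14 over all rows. SLC22A3, the organic cation transporter OCT3 (chromosome 6, 160348268 to 160452581), had 12.4, 13.1 and 12.1 FPKM in WT and 6.16, 6.05 and 4.89 in KO. All KO libraries lay below the WT range, at 45.4% in the mean. The log2 fold change was -1.02 (SE 0.10, adjusted p = 5.2e-05 in limma), from -1.07 to -0.93 under omission of each library. SLC22A23 and SLC22A31, relatives whose substrates are not settled, were lower at -0.74 (SE 0.09, adjusted p = 1.7e-04 in limma) and -0.66 (SE 0.09, adjusted p = 4.0e-04 in limma). All 3 members of the SLC22 family listed by name were thus lower, where 36.5% of all rows were.

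SLC13A5, which brings citrate in from the blood, rose from 62.0 ± 4.39 to 77.3 ± 4.55 FPKM (SD, n = 3, log2 fold change 0.31, adjusted p = 0.0043 in limma), and the dicarboxylate carrier SLC13A3 had 0.27. SLC17A5, which exports sialic acid from lysosomes, rose from 7.16 ± 0.786 to 9.56 ± 0.807 FPKM (SD, n = 3, log2 fold change 0.37, SE 0.10, adjusted p = 0.014 in limma). That call was lost without WT replicate 2 (0.33) or KO replicate 2 (0.32). SLC35A1, the only nucleotide sugar carrier listed by name, brings CMP-sialic acid into the Golgi. It fell from 7.34 ± 0.516 to 4.95 ± 0.637 FPKM (SD, n = 3, log2 fold change -0.49, SE 0.12, adjusted p = 0.0070 in limma).

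Vitamin carriers were lower or not called. SLC19A2, a thiamine importer (chromosome 1, 169463909 to 169486003), had 13.4, 16.5 and 16.4 FPKM in WT and 11.4, 11.1 and 10.5 in KO (log2 fold change -0.45, SE 0.09, adjusted p = 0.0030 in limma). The groups did not overlap. SLC52A2, a riboflavin importer, fell from 35.1 ± 3.06 to 26.6 ± 4.16 FPKM (SD, n = 3, log2 fold change -0.40, adjusted p = 0.015 in limma), a call lost without WT replicate 3 (-0.33). SLC23A2, a vitamin C importer and the most abundant row of its class, was at 41.4 ± 2.60 and 36.01 ± 4.58 FPKM (SD, n = 3) and not called (log2 fold change -0.20, adjusted p = 0.082 in limma). Without KO replicate 2 it passed 0.05, at -0.30. The folate importer SLC46A1 had 0.06 and was not called.

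SLC33A1, which brings acetyl-CoA into the endoplasmic reticulum, was lower at -0.46 (SE 0.10, adjusted p = 0.0044 in limma). The nucleoside carrier SLC29A1 rose from 10.7 ± 0.636 to 15.7 ± 0.432 FPKM (SD, n = 3, log2 fold change 0.51, SE 0.07, adjusted p = 4.4e-04 in limma). SLC27A2 and SLC27A4, which activate and take up fatty acids, had log2 fold changes of 0.33 and 0.29 and were both called. SLC44A1, a choline carrier, had 0.917, 0.776 and 0.934 FPKM in WT and 2.40, 3.71 and 1.47 in KO. Its log2 fold change of 0.86 (SE 0.32, adjusted p = 0.046 in limma) was not called when any library other than KO replicate 3 was left out, from 0.63 without KO replicate 2 to 0.88 without WT replicate 3.

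Ion carriers other than SLC40A1 moved less. SLC26A11, a carrier of sulfate and chloride that overlaps SGSH on the other strand, had 4.78, 6.20 and 5.75 FPKM in WT and 3.00, 1.91 and 3.33 in KO (log2 fold change -0.83, SE 0.19, adjusted p = 0.0053 in limma). SLC12A5, an exporter of potassium and chloride, rose from 4.92 ± 0.666 to 7.22 ± 0.932 FPKM (SD, n = 3, log2 fold change 0.47, adjusted p = 0.015 in limma), and was not called without WT replicate 3 (0.38), KO replicate 1 (0.43) or KO replicate 2 (0.42). The phosphate importer SLC20A1 had 28.9 ± 3.81 FPKM in WT and 36.8 ± 2.58 in KO (SD, n = 3, log2 fold change 0.35, adjusted p = 0.013 in limma), a call lost without KO replicate 2 (0.30). SLC4A2 and SLC12A7 were not called.

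Level and change were related weakly across the 73 carriers, with r = -0.28 between log2(FPKM + 1) in WT and the log2 fold change (Spearman's rho = -0.19). Carriers share libraries and their fold change contains the WT level, so this is a description only. Of the 75 members 35 have exons that overlap another annotated gene, and without strand information reads of the 2 genes cannot be told apart. SLC9A3R2, a scaffold protein that is not a carrier, had 18.8 ± 2.05 FPKM in WT and 14.5 ± 1.68 in KO (SD, n = 3, log2 fold change -0.36, adjusted p = 0.015 in limma). Without KO replicate 1 (-0.30) or KO replicate 2 (-0.32) it was not called.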

How the data were processed

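Libraries from 3 WT and 3 FN3K KO plates of HepG2 cells were analysed, grouped by their sample titles. The FPKM values, 1 per locus, were deposited by the authors, who aligned reads with HISAT2 and ran StringTie for assembly and quantification. The submitters' processing notes name StringTie 2.0.6 and GRCh38.p5. The filter on loci, the strand of the libraries and their depth are not given in the sources used here, so no counting interval was computed.

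Tests ran on log2(FPKM + 1) of all 6357 rows with limma 3.58.1 under R 4.3.3 (lmFit, then eBayes with trend), and p-values were adjusted over all rows by the Benjamini-Hochberg method. The pseudocount of 1 understates changes at low levels. On simulated data with known changes the fit was checked for recovery. As an alternative, Ballgown's linear model, which the study used, was rebuilt with lmFit and without eBayes. It was not the main fit, since its library adjustment takes 1 of the few residual degrees of freedom. Coordinates are from GENCODE version 29 (GRCh38), and promoters from RefSeq (GRCh38.p14). Python 3.11.15 was used with pandas 2.3.3 and matplotlib 3.10.9.

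The members, classes and lists were chosen with earlier results of these data known. Genes given with full statistics are the zinc carriers, up to 5 higher and 5 lower in each of the amino acid, sugar and mitochondrial classes and up to 8 in each direction over the other classes (adjusted p under 0.05, mean of at least 1 FPKM, groups not overlapping), and the most abundant row of each class. Other members are named where a class is listed. A mitochondrial row is counted with its class but is not reported by name here.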

Additional observations from a re-analysis of the deposited data

How the results depend on the processing

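The rebuilt linear model of Ballgown, with its library adjustment and unmoderated variances, gave the fewest calls of the alternatives: 11 members higher (21 in limma) and 5 lower (31). Over all rows it called 606 higher (1348 in limma) and 521 lower (2322). By class it called 0 zinc importers lower (2 in limma), 1 amino acid carrier higher (3) and 1 lower (6), 1 sugar carrier lower (3) and 2 mitochondrial carriers lower (10). Of 48 named members, 31 lost their call there, 16 stayed on their side of the threshold, and SLC39A14, not called in either, turned from -0.15 to 0.014. The cause was not tested. The number of members lower by more than 1 on the log2 scale at an unadjusted p under 0.05 was 2 in limma, 5 with a pseudocount of 0.1 and 1 with scaling to a common 75th percentile. Leaving out each library gave 1 to 5 of them, with 5 without FN3K KO replicate 2 and 1 without WT replicate 2 or FN3K KO replicate 3, 1 to 2 sugar carriers higher, 15 to 19 members higher and 30 to 33 lower. A pseudocount of 0.1 and a minimum mean of 1 FPKM changed no call among the named members, and a fit with no variance trend lost SLC6A6 (adjusted p = 0.059).

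Whether same-numbered libraries of the groups were paired is not stated in the sources used here. Their deviations from the group means correlated at 0.00958, 0.00606 and 0.0458, and those of differently numbered libraries at -0.0454 to 0.0350. Such correlations cannot show how the plates were handled. With a replicate block 20 members were higher and 32 lower. SLC44A1 lost its call (adjusted p = 0.063) and SLC23A2 gained it (adjusted p = 0.022), and no other named member changed.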
